A study of Saccharomyces cerevisiae with 16 samples.

Results

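The MMS response of esa1-L254P budding yeast released into S phase was read from 2 two-colour arrays, a dye-swapped set of replicates, out of 16 arrays in the series, and is described over 4073 named genes. These were the arrays titled as the mutant's MMS comparison in S phase, and all named genes were kept, since no filter on signal was possible. The cells were W303 Saccharomyces cerevisiae carrying esa1-L254P::NatRMX4. They were arrested with α-factor for 2 h, washed into YPAD and released into S phase, with 0.05% methyl methanesulfonate (MMS) for 1 h on the treated side and no MMS on the other side. Polyadenylated RNA of treated cells was set against that of untreated cells of the same strain on each array. The other arrays of the series made the same MMS comparison in wild-type W303 in S phase and in both strains arrested in G1 (α-factor for 1 h, then 0.05% MMS or nothing for 1 h), or set esa1-L254P against wild type directly, with 2 arrays for each of 8 comparisons.

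Esa1 is the catalytic subunit of NuA4, the essential complex that acetylates histone H4 and the variant H2A.Z, and esa1-L254P is a point mutation in that subunit. MMS methylates bases in DNA. In S phase, methylated bases stall replication forks, the Mec1 and Rad53 kinases are activated, ribonucleotide reductase genes are derepressed through Dun1 and the Crt1 (Rfx1) repressor, and cells are held before mitosis. MMS also methylates proteins and glutathione, and budding yeast answers many such stresses by raising general stress genes and lowering genes of ribosome synthesis.

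Each value is a log2 ratio of MMS over untreated, averaged over the spots of a gene, and the sign of array 2, on which the treated RNA carried Cy3, was turned. The sign rests on the ratio being Cy5 over Cy3, as limma computes it by default, and the base of 2 on the same default. Ratios carry no expression level, so no gene's abundance, and no cell type or phase marker's level, could be checked here. Neither the rows' probe identities nor their order is given with the values. Gene names therefore rest on a row ordering found by the likeness of duplicate spots. With it, duplicate spots of 2036 genes kept out of the search correlated at 0.906 on array 1 and 0.924 on array 2 of this comparison, across genes. The 2 arrays of esa1-L254P over wild type in S phase with MMS had the lowest such values of the series, 0.747 and 0.696.

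Before their signs were turned the 2 arrays correlated at -0.496 across genes, and after turning 2901 of 4073 genes (71.2%) lay on the same side of 0 on both. The spread over genes was 0.563 (SD) on array 1 and 0.73 on array 2. One limma model over all 16 arrays, with 1 coefficient per comparison, gave each gene's mean change over n = 2 arrays, its standard error (SE) and a Benjamini-Hochberg adjusted p, and a gene was called at an adjusted p under 0.05. By that rule 662 genes rose with MMS (16.3% of genes tested) and 692 fell (17%), all 1354 of them on the same side of 0 on both arrays. Of these, 67 rose and 107 fell at least 2-fold. Values of single arrays below are given as array 1, then array 2.

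Same-numbered arrays of different comparisons deviated together from their means. Arrays of the same number also share a dye orientation, so an effect of dye and one of the replicate set cannot be told apart. With that shared deviation fitted as a replicate block 1030 genes rose (25.3%) and 1235 fell (30.3%). Counts of each gene list's MMS response with the block or with either array left out are given below, or their move is named. This is done where they differ from the plain counts by more than 1.5 times or where a count of 0 did not hold. With array 1 left out 364 genes rose and 467 fell, and with array 2 left out 299 rose and 373 fell, the lone array being taken to vary like the other comparisons. The p-values rest on the spread between the 2 arrays of a comparison, pooled over all 8 comparisons, and not on this pair alone. Whether the 2 arrays of a comparison came from separate cultures is not stated, so that spread may be technical.

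**Figure D1:**
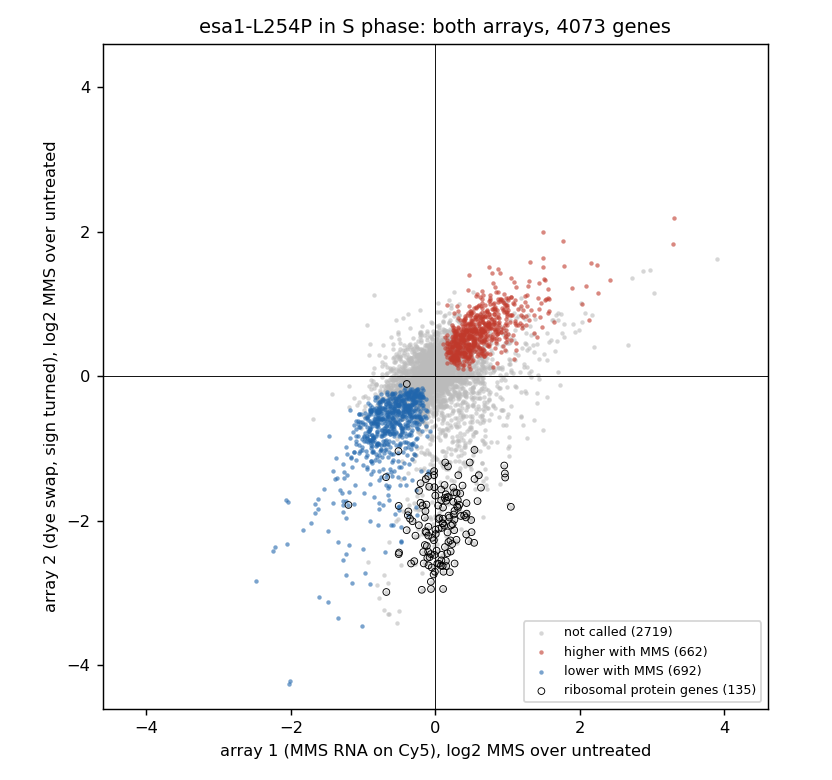
Log2 MMS over untreated of 4073 genes in esa1-L254P S phase, array 1 on the horizontal and array 2 (dye swap, sign turned) on the vertical axis; 662 genes called higher are red, 692 called lower blue, and open circles mark 135 cytosolic ribosomal protein genes. Called genes lie in the lower left and upper right quadrants, while the ribosomal protein genes form a group near 0 on array 1 and far below 0 on array 2.

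Of the 4 ribonucleotide reductase genes, which encode the enzyme that makes deoxynucleotides, RNR1, RNR3 and RNR4 rose. RNR3, the damage-inducible large subunit, read 0.99 and 0.99, a mean of 0.99 (1.99-fold, SE 0.076, adjusted p = 2.6e-05). RNR1, the main large subunit, read 1.27 and 1.13 (mean 1.20, adjusted p = 0.0146) and RNR4, a small subunit, 1.26 and 0.71 (mean 0.99, adjusted p = 0.00763). All 3 were above 0 on both arrays. RNR2, the other small subunit, was positive on both arrays too, at 1.36 and 0.34, but did not pass the test (adjusted p = 0.179, and 0.0169 with the replicate block).

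Their regulators moved as well. DUN1, the kinase that acts on this system downstream of Rad53, rose by 0.77 (adjusted p = 0.00083), HUG1, an inhibitor of the enzyme that is itself a damage-induced gene, by 0.68 (adjusted p = 0.00483), and RFX1, the repressor known as Crt1, by 0.37 (adjusted p = 0.0104). IXR1, a regulator of RNR1 transcription, fell by 1.00 on the log2 scale (adjusted p = 3.8e-05). SML1, the inhibitor of ribonucleotide reductase, named after its values were seen, read -0.93 and -2.56 (adjusted p = 0.125, and 0.000549 with the block), so that its arrays differed widely in size though not in sign. In all, 6 of 10 genes of this group rose and 1 fell (7 and 2 with the block), with a median change of 0.73, against -0.0128 over all genes tested. With array 1 left out 3 rose, and with array 2 left out 4.

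Among 21 DNA damage checkpoint genes 7 rose, 4 fell and 10 were not called, around a median of 0.14. RAD53, the effector kinase, read 0.86 and 1.08 and had the highest mean of the group (0.97, SE 0.20, adjusted p = 0.00428). The fork mediators MRC1 and TOF1 rose by 0.51 (adjusted p = 0.0187) and 0.45 (adjusted p = 0.00235), DDC1, a subunit of the checkpoint clamp, by 0.51 (adjusted p = 0.0341) and PDS1, securin, by 0.26 (adjusted p = 0.0201). The genes that fell included both apical kinases, MEC1 at -0.47 (adjusted p = 0.000895) and TEL1 at -0.24 (adjusted p = 0.0259), together with MMS1, a subunit of a cullin ubiquitin ligase (-0.44, adjusted p = 0.00664), and RAD9, the adaptor that brings Rad53 to Mec1 (-0.22, adjusted p = 0.0394). RAD53 thus rose while MEC1 and TEL1 fell. Over all genes tested 16.3% rose and 17% fell, so the share of falls in this group was near that of all genes. Leaving out either array left 2 genes called higher, and 1 (without array 1) or 2 (without array 2) called lower.

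Repair genes rose more often than they fell, with most members not called. In base excision repair, MAG1, the glycosylase that removes methylated bases, read 1.18 and 0.97 (mean 1.08, 2.11-fold, adjusted p = 0.00097). NTG1, a glycosylase and lyase, rose by 0.51 (adjusted p = 0.000644) and RAD27, the flap endonuclease, by 0.76 (adjusted p = 0.000181). These were the 3 genes called among 12 of that group, or 7 higher and 1 lower with the block.

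Nucleotide excision repair had 6 of 19 genes higher and 3 lower, led upward by RAD2, the nuclease that cuts beside the lesion (0.91 and 1.07, adjusted p = 0.000618), and RAD16, which recognises damage in silent chromatin (0.66 and 0.76, adjusted p = 0.000274). RAD28, a homologue of the human CSA repair factor, was the lowest at -0.75 (adjusted p = 0.00689). The share of these excision repair genes that fell was near the 17% of all genes tested. In mismatch repair, PMS1 and MSH6, subunits of the MutL-like and MutS-like complexes, rose by 0.89 (adjusted p = 0.00011) and 0.86 (adjusted p = 4.07e-05), and the other 4 of 6 measured genes were not called. With the block 4 mismatch repair genes rose. Of the excision repair genes, 5 rose and 0 fell without array 1, and 2 and 1 without array 2.

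Of 24 homologous recombination genes 7 rose and 1 fell (12 and 3 with the block). RAD54, a DNA-dependent ATPase of recombination, read 0.64 and 0.81 (adjusted p = 0.00845) and its relative RDH54 0.69 and 0.73 (adjusted p = 0.00105). MUS81, a structure-specific nuclease, rose by 0.53, RAD59, an annealing factor, by 0.52, TOP3, a topoisomerase, by 0.50, and RAD50, of the Mre11 complex, by 0.41. SHU1, of the Shu complex, was the 1 gene that fell, at -0.18 and -0.39 (adjusted p = 0.019). With array 1 left out 5 genes rose and 1 fell, and with array 2 left out 4 rose and 0 fell.

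In translesion synthesis and post-replication repair 6 of 18 genes rose and 3 fell (10 and 4 with the block). The share that fell was near the 17% of all genes tested. UBC13, which builds the ubiquitin chain on PCNA, rose by 0.80 (adjusted p = 0.00421), MGS1, an ATPase that binds modified PCNA, by 0.53, POL32, of polymerase delta, by 0.40, and ULP1, a SUMO protease, by 0.36. REV1, the deoxycytidyl transferase that scaffolds translesion synthesis, fell, at -0.82 and -1.07 (mean -0.95, adjusted p = 0.00407), beside UBP10, a ubiquitin protease that acts on PCNA and histone H2B (-0.74), and UBC9, the SUMO-conjugating enzyme (-0.65). REV3, the catalytic subunit of polymerase zeta, read 0.12 and 0.48 (adjusted p = 0.179) and its partner REV7 read 0.084 and 0.28 (adjusted p = 0.139), and neither was called, nor was RAD30, polymerase eta, at -0.13 and 0.44 (adjusted p = 0.612). Of REV1, REV3, REV7 and RAD30, REV1 alone was thus called, and it fell. With array 1 left out 1 gene of the group rose and 2 fell, and with array 2 left out 2 rose and 1 fell.

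**Figure D2:**
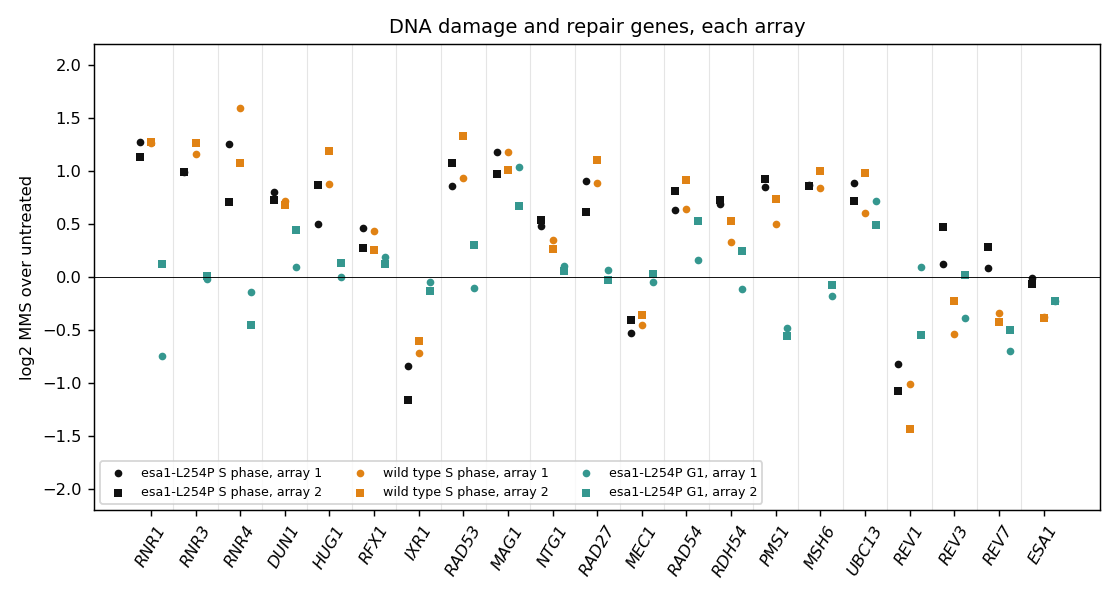
Log2 MMS over untreated of 21 DNA damage and repair genes on each array (circles array 1, squares array 2) in esa1-L254P S phase (black), wild-type S phase (orange) and esa1-L254P G1 (teal). RNR1, RNR3 and RNR4 lie between 0.71 and 1.60 in both S phase comparisons and at 0.12 or below in G1, MAG1 lies above 0 in all 3, and REV1 lies between -1.44 and -0.82 in both strains in S phase.

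Genes of the G1/S wave, transcribed through the factors MBF and SBF as cells enter S phase, rose more often than they fell: 21 of 40 rose and 2 fell (22 and 6 with the block), with a median of 0.47. RFA2, a subunit of the single-stranded DNA binding protein RPA, read 2.09 and 1.25 (mean 1.67, 3.18-fold, adjusted p = 0.00236). PDS5 and MCD1, of the cohesin complex, rose by 1.01 (adjusted p = 0.00224) and 0.95 (adjusted p = 0.00097), and RFA1, the large RPA subunit, by 0.89 (adjusted p = 0.000806). The 2 that fell were GIC1, an effector of the polarity GTPase Cdc42 (-0.67, adjusted p = 0.00102), and YOX1, a repressor of M/G1 genes (-0.60, adjusted p = 0.000177). Both were below 0 on both arrays.

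Origin and fork genes went both ways, with 14 of 41 higher and 7 lower, where 16.3% of all genes tested rose and 17% fell. The share that fell was thus near that of all genes. The rises included POL12 and PRI2 of the polymerase alpha-primase complex (0.80 and 0.74), CDC45 (0.78), SLD2 (0.79), DPB3 of polymerase epsilon (0.68) and CTF4 (0.60), with adjusted p between 7.37e-05 and 0.00306. The falls included MCM7 (-0.90) and MCM2 (-0.42) of the replicative helicase, ORC1 of the origin recognition complex (-0.73), DBF4, which activates the Cdc7 kinase (-0.43), and SLD3 (-0.35), with adjusted p between 7.09e-05 and 0.00557. MCM5, also a helicase subunit, went the other way at 0.34 (adjusted p = 0.0135). Without array 2, 7 genes rose and 4 fell.

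The G2/M genes of the CLB2 cluster fell, with 20 of 23 genes called lower, none higher (1 and 22 with the block, higher first), and a median of -1.25. SWI5, the transcription factor of late mitosis, read -2.49 and -2.84 (mean -2.66, 6.33-fold lower, SE 0.20, adjusted p = 2.6e-05). HOF1, which acts in cytokinesis, read -2.25 and -2.41 (mean -2.33, adjusted p = 5.58e-06) and HST3, a sirtuin that deacetylates histone H3, -2.06 and -2.32 (mean -2.19, adjusted p = 2.2e-05). The arrays lay close together for each of these 3. CDC5, the polo kinase, CLB2, the B-type cyclin that names the cluster, and CHS2, the septum chitin synthase, fell too, with means of -1.98, -1.89 and -1.82. Leaving out either array gave 19 (without array 1) and 18 (without array 2) genes called lower.

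M/G1 genes fell in 12 of 27 cases and rose in 3 (13 and 5 with the block). CLN3, the G1 cyclin, read -0.76 and -1.39 (adjusted p = 0.0227), AMN1, an antagonist of mitotic exit, -0.96 and -1.12 (adjusted p = 0.000367), and FAR1, the cyclin kinase inhibitor of the pheromone pathway, -0.89 and -0.48 (adjusted p = 0.0141). SWI4, the DNA-binding subunit of SBF, and RME1, a repressor of meiosis, rose, with means of 1.16 (adjusted p = 0.0196) and 0.89 (adjusted p = 0.0103). These calls depended on the arrays kept, with 2 genes lower and 1 higher without array 1, and 6 lower and 0 higher without array 2.

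Of 48 kinetochore, spindle and cohesion genes 21 fell and 4 rose. The lowest were DBF2 (-0.85), TEM1 (-0.82), BFA1 (-0.77) and CDC14 (-0.77), which act in mitotic exit or its control, ASE1 (-0.82), of the spindle midzone, and NUF2 (-0.73), of the outer kinetochore, with adjusted p between 8.73e-05 and 0.0163. DUO1 of the Dam1 ring (0.52, adjusted p = 0.025), BIR1 of the chromosomal passenger complex (0.32), MTW1 of the kinetochore (0.28) and PDS1 rose. Without array 1, 9 genes of this group fell and 0 rose, and without array 2, 12 fell and 1 rose. In such a bulk comparison, a smaller share of cells in a cycle stage and less of a transcript per cell cannot be told apart, nor can the cell cycle position of treated cells from a response to damage.

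Histone genes differed between the arrays. The 11 histone genes had array medians of 0.41 and -1.10, 8 of them above 0 on array 1 and below 0 on array 2, and HTZ1, the H2A.Z gene, was the 1 called (-0.26 and -1.57, adjusted p = 0.0175). Without array 2 it was not called, and with the block 1 histone gene rose and 1 fell. No direction can be given for the others.

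Mating pheromone genes had 7 of 31 members lower and 1 higher, led by PRM7, a pheromone-regulated membrane protein (-1.62 and -1.83, adjusted p = 2.56e-05), CIK1, a kinesin partner (-0.87), and MSG5, a phosphatase of the pathway (-0.77). KAR4, a transcription factor of karyogamy, was the 1 that rose (0.59, adjusted p = 0.0445), and with either array left out none did. No a-cell gene of 7 and no α-cell gene of 4 was called by limma (0 with the block as well, and 0 of both lists at an unadjusted p under 0.05). For the α-cell list the 0 did not hold with array 2 left out. Of 27 genes of meiosis and sporulation 11 rose and 3 fell, with SPO21 (0.86), SPR3 (0.58) and SPO13 (0.53) highest and SPS4 (-1.41) lowest. With the block 13 rose and 6 fell, while 7 rose and 3 fell without array 1, and 4 and 3 without array 2. These genes are little expressed in dividing cells, and their levels are unknown here.

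ESA1 itself read -0.0053 and -0.061 and was not called (adjusted p = 0.759); the arrays cannot show the mutation. Among 12 measured NuA4 genes TRA1, the large scaffold that contacts activators, fell by 0.88 on the log2 scale (adjusted p = 0.0011), EAF1, the platform subunit, fell by 0.26 (adjusted p = 0.0355), and YAF9, a YEATS-domain reader shared with SWR1, rose by 0.37 (adjusted p = 0.0342). The other 9 were not called. Over all genes tested 16.3% rose and 17% fell. With the block 2 rose and 4 fell, while 1 rose and 1 fell without array 1, and 0 and 1 without array 2. Of 64 other genes of histone acetylation, deacetylation and remodelling 16 fell and 7 rose, or 27 and 9 with the block. The 7 that rose included ISW1, a remodelling ATPase (0.63), 3 subunits of INO80, a remodeller that acts at stalled forks, IES1 (0.61), IES2 (0.60) and IES4 (0.46), and HDA2 of the Hda1 deacetylase (0.53). Beside HST3, those that fell included SAS2, a histone H4 acetyltransferase (-0.67, adjusted p = 0.00115), RSC30 of the RSC remodeller (-0.53), the chaperone VPS75 (-0.53) and the deacetylase HOS3 (-0.52). Of the group, 5 rose and 10 fell without array 1, and 4 and 7 without array 2.

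Genes of protein breakdown rose more often than they fell. Of 38 proteasome genes 14 rose and none fell, 37 were above 0 on both arrays, and the median was 0.93. With the block 27 rose. RPT3, an ATPase of the regulatory particle, read 1.51 and 1.33 (mean 1.42, 2.68-fold, adjusted p = 0.00247) and RPN6, a lid subunit, 1.56 and 1.21 (mean 1.39, adjusted p = 0.00452). PRE1, PRE9, RPN8 and PRE8 followed, with means between 1.18 and 1.24 and adjusted p between 0.0252 and 0.043. Array 1 was above array 2 for 36 of 38 genes, and without array 1 only 2 were called, against 6 without array 2.

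Of 23 ubiquitin and Cdc48 genes 13 rose and 1 fell. UBI4, the polyubiquitin gene, read 2.42 and 1.33 (mean 1.88, 3.67-fold, adjusted p = 0.0256). NPL4 and UFD1, the cofactors through which Cdc48 unfolds ubiquitinated proteins, rose by 1.32 (adjusted p = 5.47e-05) and 1.29 (adjusted p = 0.000576), and the conjugating enzyme UBC8, the Cdc48 cofactor DOA1 and the shuttle factor DDI1 by 1.27, 1.02 and 0.99. BUL2, an adaptor of the Rsp5 ligase, was the 1 that fell (-0.32, adjusted p = 0.0437). Of the list, 6 rose and 0 fell without array 1, and 9 and 0 without array 2.

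Redox genes linked to the oxidant-sensing factor Yap1 had the highest median of the lists with 20 or more genes, at 1.01, and 16 of 26 rose with none lower. GRE2, a methylglyoxal reductase, read 2.15 and 1.57 (mean 1.86, adjusted p = 0.00805), GPX2, a peroxidase, 1.89 and 1.22 (mean 1.56, adjusted p = 0.0148), and TRR1, thioredoxin reductase, 2.13 and 0.79 (mean 1.46, adjusted p = 0.0436). The drug exporter FLR1, the glutathione transferase ECM4 and the nitroreductase-like FRM2 rose by 1.43, 1.32 and 1.21. YAP1, below these and so outside the rule for named genes, rose by 1.18 (adjusted p = 0.013). With either array left out 7 of the 26 were called.

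Heat shock chaperones rose in 11 of 24 cases with none lower, led by HSP104, the disaggregase (1.43 and 1.29, adjusted p = 0.0103), CPR6, an Hsp90 partner (1.04), BTN2, a sequestering factor (0.94), and HSP78, a mitochondrial relative of Hsp104 (0.93). General stress genes controlled by Msn2 and Msn4 rose in 14 of 28 cases with none lower, led by the repressor XBP1 (1.21 and 0.82, adjusted p = 0.00028), TFS1 (0.96) and the phosphatase SDP1 (0.92). Without array 1, 3 chaperone genes and 12 general stress genes were called, and without array 2, 4 and 8. With the block 2 chaperone genes and 2 general stress genes fell.

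Glycogen and trehalose genes rose in 10 of 20 cases and fell in 1 (14 and 2 with the block). PIG1, a targeting subunit of the Glc7 phosphatase, read 1.12 and 1.24 (adjusted p = 4.13e-05), TSL1, of the trehalose synthase complex, 1.27 and 0.97 (adjusted p = 0.00155), and the trehalases ATH1 and NTH1 rose by 1.05 and 0.94. Genes of synthesis and breakdown rose together. GAC1, another Glc7 subunit, fell by 0.69 on the log2 scale (adjusted p = 0.000709).

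Autophagy genes rose in 17 of 26 cases, 20 being above 0 on both arrays, with a median of 0.69. ATG1, the kinase that starts autophagosome formation, read 1.76 and 1.87 (mean 1.82, 3.53-fold, SE 0.17, adjusted p = 5.47e-05). ATG20, a sorting nexin, rose by 1.20 (adjusted p = 0.000178), ATG8, the ubiquitin-like protein of the membrane, by 1.04 (adjusted p = 0.000821), ATG7, its activating enzyme, by 0.98 (adjusted p = 0.000246), and ATG14 and ATG13, of the lipid kinase and Atg1 complexes, by 0.95 and 0.83. ATG10 was the 1 lower gene (-0.63, adjusted p = 0.000309). Without array 1, 13 were called higher, and without array 2, 12.

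Endosomal sorting (ESCRT) genes rose in 8 of 19 cases and fell in 1 (13 and 1 with the block), led by IST1 (0.85), SNF7 (0.73) and VPS27 (0.65). In endoplasmic reticulum folding 5 of 27 genes rose and 1 fell (10 and 1 with the block), a share of rises near the 16.3% of all genes tested. ERO1, the thiol oxidase, read 2.25 and 1.16 (mean 1.71, 3.26-fold, adjusted p = 0.014), while IRE1, the sensor of unfolded protein, read -0.80 and -0.49 (adjusted p = 0.00689). Aryl-alcohol dehydrogenase genes rose in 3 of 6 cases, led by AAD10 (0.70, adjusted p = 9.35e-05). Without array 1, 4 ESCRT, 3 folding and 2 dehydrogenase genes rose, and without array 2, 5, 5 and 1. The ESCRT fall was not called without either, nor the folding fall without array 1.

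The largest rise among called genes was that of SSU1, the sulfite efflux pump, at 3.30 and 2.19 (mean 2.75, 6.71-fold, SE 0.70, adjusted p = 0.0135). Of 34 sulfur genes 10 rose and 5 fell (15 and 8 with the block). STR3 and STR2, whose enzymes turn cysteine into homocysteine on the way to methionine, rose by 1.45 (adjusted p = 0.00114) and 1.08 (adjusted p = 0.000366), and SUL1 and SUL2, the sulfate permeases, by 1.04 (adjusted p = 0.000151) and 0.59 (adjusted p = 0.00107). The S-adenosylmethionine synthetase genes fell, SAM1 reading -0.59 and -2.05 (adjusted p = 0.0232) and SAM2 -0.64 and -1.52 (adjusted p = 0.00618), and so did MMP1, the S-methylmethionine permease (-0.70). The 2 SAM genes are near-identical copies, and probes may not tell them apart. Of the sulfur genes, 4 rose and 4 fell without array 1, and 5 and 1 without array 2.

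Arginine and lysine genes held some of the largest rises. ARG1, argininosuccinate synthetase, read 3.29 and 1.83 (mean 2.56, 5.9-fold, adjusted p = 0.0273) and LYS1, saccharopine dehydrogenase, 2.23 and 1.54 (mean 1.89, 3.7-fold, adjusted p = 0.0105). In all 3 of 10 arginine genes rose and 1 fell (7 and 2 with the block), and 4 of 9 lysine genes rose (7 with the block). The fall was that of CAR2, which breaks ornithine down (-0.67, adjusted p = 0.00515). Among 50 other amino acid genes 7 rose and 2 fell (19 and 4 with the block), with HIS4 (1.30), SER33 (0.93) and HIS7 (0.88) highest, and GLT1, glutamate synthase, lowest (-0.84 and -0.84, adjusted p = 0.000352). The share that rose in that group was near the 16.3% of all genes tested. Its array medians were 0.69 and 0.08, array 1 being the higher for 43 of 50 genes. Fewer of its genes were called lower with array 2 left out. Without array 1 no arginine gene was called, and without array 2, 1 rose. Of the lysine genes 1 rose without array 1 and 0 without array 2, and of the other amino acid genes 3 and 3.

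Amino acid, peptide and ammonium permease genes fell in 6 of 22 cases and rose in 3. PTR2, the peptide transporter, read -2.07 and -1.71 (mean -1.89, 3.7-fold lower, adjusted p = 0.000678), ALP1, a basic amino acid transporter, -0.90 and -0.91 (adjusted p = 4.6e-05), and TAT1, an amino acid permease, -0.58 and -1.16 (adjusted p = 0.00222). NAD synthesis genes went both ways, with 4 of 12 higher, BNA1 (0.88) and NMA2 (0.77) first. The 2 lower were BNA4 (-0.96) and the nicotinic acid permease TNA1 (-0.70), a share near the 17% of all genes tested. With the block 4 NAD genes rose and 4 fell, while 2 rose and 3 fell without array 1, and 1 and 2 without array 2. Of the permease genes 2 rose without array 1 and 0 without array 2.

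**Figure D3:**
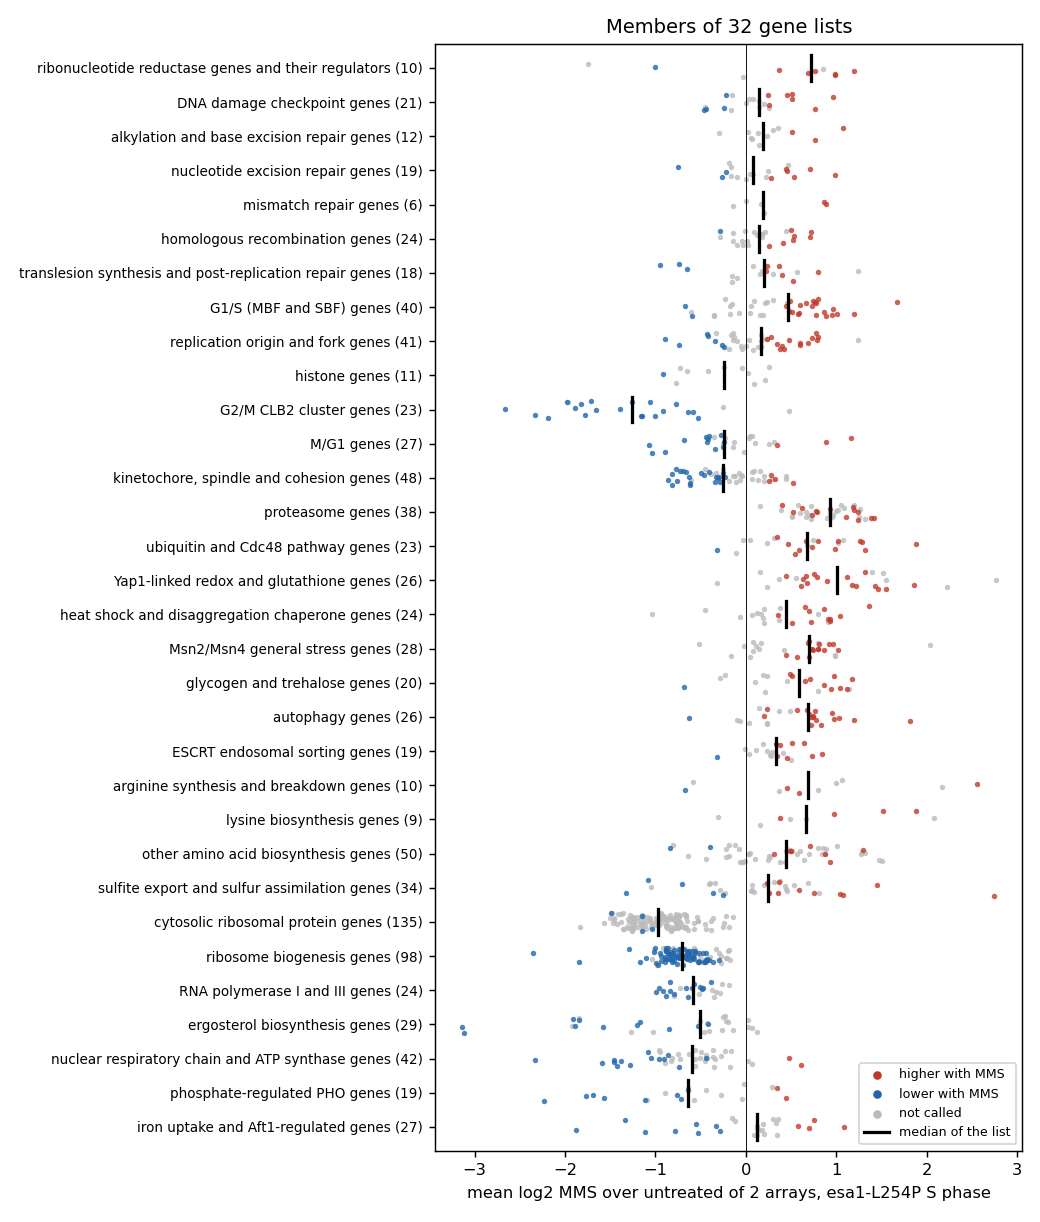
Mean log2 MMS over untreated in esa1-L254P S phase for each measured member of 32 gene lists (number of genes in brackets); red points rose, blue fell, grey were not called, and black bars are medians. CLB2 cluster and ribosome biogenesis members lie almost wholly below 0, and proteasome and Yap1-linked members almost wholly above 0.

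Ribosome biogenesis genes fell. Of 98 measured, 77 fell and none rose, 96 were below 0 on both arrays, and the median was -0.70. DBP2, a DEAD-box RNA helicase, read -1.35 and -3.35 (mean -2.35, 5.09-fold lower, adjusted p = 0.00128), and NSR1, the nucleolin-like protein, -0.97 and -2.72 (mean -1.84, adjusted p = 0.00462). In both, array 2 was far below array 1. The GTPase NOG2 and the helicase DBP7 gave like values on the arrays, -1.22 and -1.36 (adjusted p = 3.8e-05) and -1.24 and -0.98 (adjusted p = 3.92e-05). UTP20, of the small-subunit processome, and KRE33, an RNA acetyltransferase, had means of -1.17 and -1.02. Without array 1, 60 genes fell, and without array 2, 40.

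Genes of RNA polymerases I and III fell in 15 of 24 cases with none higher. RRN7, of the polymerase I core factor, read -1.02 and -0.97 (adjusted p = 2.56e-05), RPC31 of polymerase III -0.87 and -1.05 (adjusted p = 0.00031), and RPA135, the second largest subunit of polymerase I, -0.43 and -1.41 (adjusted p = 0.0207). Without array 2 the count was 6.

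The 135 measured cytosolic ribosomal protein genes gave different answers on the 2 arrays. Their median was 0.089 on array 1 and -1.98 on array 2, array 2 was the lower for 134 of 135 genes, and 82 genes were above 0 on array 1 and below 0 on array 2. The mean of both had a median of -0.97, and 4 genes fell: RPL8A (-1.20 and -1.78, adjusted p = 0.0259), RPL18B (-0.38 and -1.92), RPL7B (-0.51 and -1.79) and RPS7B (-0.68 and -1.39, adjusted p = 0.00245). With the block, whose term (the part of a ratio that follows the Cy5 channel or, equally, the replicate number) had a median of 1.03 over these genes, 123 fell. Without array 1, 4 fell, and without array 2, 0. Many of these genes are near-identical pairs, which the probes may not separate. Mitochondrial ribosomal protein genes had 4 of 59 higher and none lower, at a median of 0.11. With the block 9 rose and 4 fell, while 0 rose and 1 fell without array 1, and 0 and 0 without array 2.

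The largest falls of all were in ergosterol synthesis. ERG3, a sterol desaturase, read -2.02 and -4.25 (mean -3.14, 8.8-fold lower, SE 0.53, adjusted p = 0.00163) and ERG11, lanosterol demethylase and the target of azole drugs, -2.01 and -4.22 (mean -3.11, 8.64-fold lower, adjusted p = 0.0013). Each was far lower on array 2 than on array 1, and below 0 on both. ERG5, CYB5, ERG1 and HMG1, which carry out other steps of the pathway or donate electrons to it, fell, with means between -1.91 and -1.58 and adjusted p between 0.000429 and 0.0162. UPC2, a sterol-sensing activator of these genes that the rule did not pick, fell as well (mean -0.53, adjusted p = 0.0128). In all 11 of 29 genes fell (17 with the block) and none rose, and without array 2, 5 fell.

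Lipid genes fell in 8 of 31 cases and rose in 2 (11 and 4 with the block). OLE1, the fatty acid desaturase, read -1.16 and -2.85 (mean -2.00, 4.01-fold lower, adjusted p = 0.00573), URA7, CTP synthase, -1.20 and -1.61 (adjusted p = 0.00105), and FAS1, of fatty acid synthase, -0.48 and -1.50 (adjusted p = 0.0233). CKI1, choline kinase, and MGA2, an activator of OLE1, rose by 0.70 (adjusted p = 0.00483) and 0.51 (adjusted p = 0.00496). Of the lipid genes, 1 rose and 4 fell without array 1, and 0 and 3 without array 2.

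Respiratory chain genes encoded in the nucleus fell in 14 of 42 cases and rose in 2 (22 and 2 with the block). NDE1, the external NADH dehydrogenase, read -1.61 and -3.05 (mean -2.33, 5.02-fold lower, adjusted p = 0.00048), CYT1, cytochrome c1, -1.23 and -1.96 (adjusted p = 0.00057), and INH1, the ATP synthase inhibitor, -1.29 and -1.62 (adjusted p = 6.53e-05). The isoforms NDE2 and COX5B rose, by 0.61 (adjusted p = 0.0129) and 0.48 (adjusted p = 0.0375), while COX5A, named as the partner isoform of COX5B, read -0.47 and -2.08 (adjusted p = 0.0447). Without array 2, 4 genes fell, and with either array left out none rose. Of 15 mitochondrially encoded genes none was called by limma (0 at an unadjusted p under 0.05, and 2 higher and 1 lower with the block).

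Phosphate genes fell more often than they rose. Among 19 PHO genes 8 fell and 2 rose, led by the acid phosphatases PHO11 (-1.02 and -3.45, adjusted p = 0.0264), PHO3 (-1.20 and -2.33, adjusted p = 0.000758), PHO12 (mean -1.69, adjusted p = 0.00385) and PHO5 (-0.70 and -2.43, adjusted p = 0.0187). These are close copies of each other, which probes may confuse. Of 27 iron genes 8 fell and 4 rose, around a median of 0.12, with 10 genes above 0 and 9 below 0 on both arrays. FRE4, a metalloreductase, read -1.72 and -2.03 (mean -1.87, adjusted p = 1.36e-05), FET3, the iron oxidase, -0.61 and -2.05 (adjusted p = 0.00453), and HMX1, heme oxygenase, -1.01 and -1.22 (adjusted p = 0.00176). Against them FIT2, a cell wall mannoprotein of siderophore uptake, and the transporter ENB1 rose by 1.08 and 0.76. Without array 2, 3 PHO genes fell, and with either array left out none rose. Of the iron genes, 3 rose and 5 fell without array 1, and 2 and 6 without array 2.

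Cell wall genes fell in 5 of 33 cases and rose in 1 (12 and 3 with the block, and none rose with either array left out), with SUR7, of the eisosome, at -1.48 and -3.12 (adjusted p = 0.000376) and SUN4, of cell separation, at -1.28 and -1.22 (adjusted p = 8.49e-05). Genes of mRNA decay and translation control fell in 6 of 31 cases and rose in 4 (10 and 6 with the block). The shares that fell in these 2 lists were near the 17% of all genes tested. SLF1, an RNA-binding protein, had the highest value of them, at 1.49 and 1.99 (mean 1.74, 3.34-fold, adjusted p = 0.000747), and SRO9, a related RNA-binding protein, the lowest, at -1.41 and -1.31 (mean -1.36, adjusted p = 2.56e-05). Of this list, 3 rose and 6 fell without array 1, and 2 and 2 without array 2.

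In carbon metabolism, glycolysis and fermentation genes gave few calls, where 16.3% of all genes tested rose and 17% fell. The shares that rose among hexose transporter and tricarboxylic acid cycle genes were near that of all genes. Of 27 glycolysis and fermentation genes 3 rose, GPM2 (0.92), ADH5 (0.83) and PYK2 (0.67), all minor isoforms, and PFK2, of phosphofructokinase, fell (-0.96). With the block 4 rose and 7 fell, while 2 rose and 1 fell without array 1, and 1 and 0 without array 2. The array medians of that list were 0.42 and -0.53, with 15 genes above 0 on array 1 and below 0 on array 2. Hexose transporter genes had 3 of 20 higher and 3 lower (4 and 7 with the block), and tricarboxylic acid cycle genes 3 of 18 higher and 2 lower, with PYC1, pyruvate carboxylase, at 1.29 and 1.33 (adjusted p = 0.00038). Without array 2, 1 transporter and 1 cycle gene rose, and 2 and 1 fell; without array 1, 1 cycle gene rose. Vacuolar proton ATPase genes had 1 of 19 called, and none with either array left out. With the block 1 vacuolar proton ATPase gene rose and 1 fell. No COS gene of 11 was called by limma (0 at an unadjusted p under 0.05, 0 with the block).

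Outside the lists, 3 of the genes with the largest rises were BOP2, of unknown function, at 1.78 and 1.53 (adjusted p = 2.26e-05), EMP46, a cargo receptor between endoplasmic reticulum and Golgi, at 1.49 and 1.63 (adjusted p = 1.36e-05), and SDL1 at 1.49 and 1.52 (adjusted p = 6.61e-06). Large falls outside them were those of ATF2, an alcohol acetyltransferase, at -2.22 and -2.36 (adjusted p = 7.35e-06), ZRT1, the high-affinity zinc transporter, at -1.48 and -2.13 (adjusted p = 3.8e-05), and IMD4, IMP dehydrogenase, at -1.23 and -2.75 (adjusted p = 0.00577). ZRT1 and IMD4 were lower on array 2 than on array 1, and the other 4 read alike on both.

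Some large means did not pass the test, and their arrays differed in size. Named after their values were seen, these include AHP1, a peroxiredoxin (3.90 and 1.63, adjusted p = 0.083), TRX2, thioredoxin (2.97 and 1.47, adjusted p = 0.101), LYS20, homocitrate synthase (3.03 and 1.15, adjusted p = 0.0519), ARG4, argininosuccinate lyase (2.88 and 1.46, adjusted p = 0.0658), DDR48, a stress protein (2.72 and 1.36, adjusted p = 0.112), and POL30, PCNA (1.70 and 0.78, adjusted p = 0.0853). All 6 were above 0 on both arrays, higher on array 1, and had adjusted p between 0.000586 and 0.012 with the block.

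The same MMS comparison in wild type in S phase, on 2 other arrays, had 739 genes higher (18.1%) and 842 lower (20.7%). Of the 662 genes that rose in esa1-L254P, 420 (63.4%) also rose in wild type, or 56.8% of the wild-type rises, and of the 692 that fell 474 (68.5%) also fell there, or 56.3% of the wild-type falls. Of the 50 genes with the largest called changes in the mutant, 42 were called in the same direction in wild type. The CLB2 cluster had 20 of 23 genes lower in esa1-L254P and 20 in wild type, ribosome biogenesis 77 and 90 of 98, G1/S genes 21 and 25 of 40 higher, and proteasome genes 14 and 9 of 38 higher. A call in one strain and not in the other is no test of a difference, which follows.

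**Figure D4:**
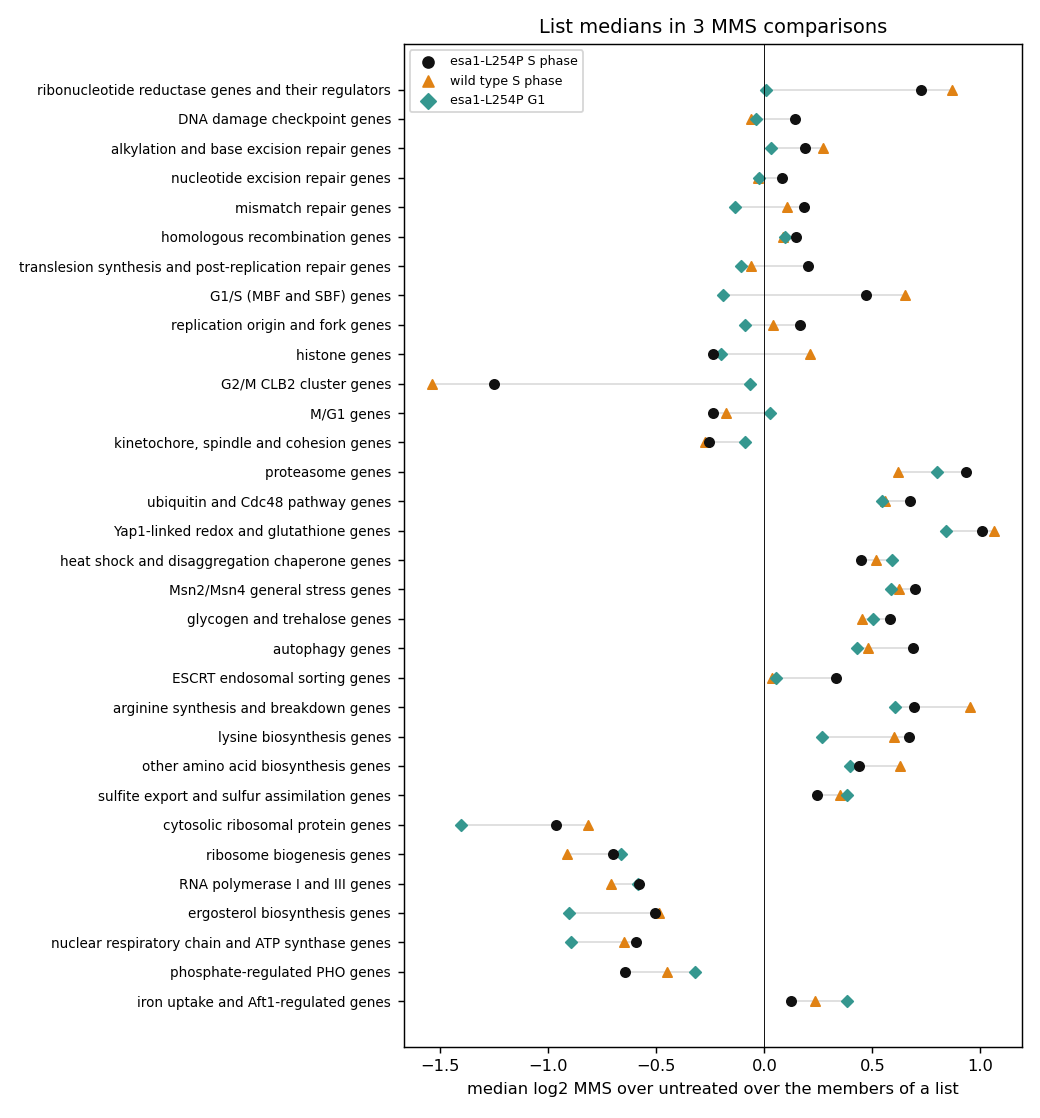
Median log2 MMS over untreated over the members of 32 gene lists in esa1-L254P S phase (black circles), wild-type S phase (orange triangles) and esa1-L254P G1 (teal diamonds). The S phase medians of the strains lie close together for most lists, whereas the CLB2 cluster median is -1.25 in esa1-L254P S phase and near 0 in G1.

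The strain difference was tested as the mean of 2 estimates from different arrays, the mutant's MMS response minus that of wild type, and the mutant-over-wild-type ratio with MMS minus that ratio without MMS. By this contrast 553 genes had a higher response in esa1-L254P than in wild type (13.6%) and 366 a lower one (8.99%), or 958 (23.5%) and 859 (21.1%) with the block. Both estimates had the same sign for 918 of these 919 genes and for 86.3% of all genes. The 919 were called on the mean of these estimates, so their like signs follow largely from the selection and are no separate support. Taken singly, the first estimate called 219 genes and the second 427, with 201 called by both with the same sign. Both estimates compare the same strains and treatments. Whether their arrays share RNA preparations is not stated, so calls by both may not be independent. Of the 553 higher genes, 182 were called lower in wild type and not called in the mutant, 123 were called higher in the mutant and not in wild type, and 31 were called higher in the mutant and lower in wild type. Of the 366 lower genes, 128 were called higher in wild type and not called in the mutant, and 96 were called lower in the mutant and not in wild type.

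The widest differences were up to 1.37 on the log2 scale. VMA10, a subunit of the vacuolar proton ATPase, read 0.37 and 0.091 in esa1-L254P, against -1.02 and -0.96 in wild type (difference 1.37, SE 0.28, adjusted p = 0.00759). GSY1, glycogen synthase, read 0.65 and 0.67 in esa1-L254P, against -0.27 and -0.19 in wild type (difference 1.01, adjusted p = 0.000278), so that the strains lay on opposite sides of 0. HMRA1, a copy of the mating-type gene a1 at the silent locus HMR, read 0.16 and 0.019 in the mutant, against -0.92 and -0.84 in wild type (difference 1.15, adjusted p = 0.000564); the same sequence stands at MATa, and the probe may not tell these apart. YSY6 and SRP21, of the secretory pathway, differed by 1.10 (adjusted p = 0.00242) and 1.01 (adjusted p = 0.00492), and the mitochondrial intron gene AI5_ALPHA by 1.07 (adjusted p = 0.0301). In esa1-L254P the arrays of each of these genes lay on opposite sides of 0. They read -0.0027 and 0.037 for YSY6, 0.65 and -0.16 for SRP21, and -0.63 and 0.075 for AI5_ALPHA.

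On the lower side, SNO1, of vitamin B6 metabolism, read 0.39 and 0.57 in esa1-L254P, against 1.35 and 1.65 in wild type (difference -1.26, SE 0.12, adjusted p = 0.000342), above 0 in both strains. PIN3, a prion-inducing protein, read 0.19 and -0.0069 in esa1-L254P, against 1.04 and 1.19 in wild type (difference -1.04, adjusted p = 0.000743), and TRM5, a tRNA methyltransferase, -1.09 and -0.83, against -0.17 and 0.11 in wild type (difference -1.01, adjusted p = 0.00122). RGM1, a zinc-finger repressor, and GPD2, glycerol-phosphate dehydrogenase, differed by -1.06 (adjusted p = 0.00678) and -1.16 (adjusted p = 0.00917). FRE4 fell in both strains, to -1.72 and -2.03 in esa1-L254P and -0.96 and -1.01 in wild type (difference -1.01, adjusted p = 0.000624).

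For 11 of these 12 genes the mutant-over-wild-type ratio was farther from 0 without MMS than with MMS. SNO1 stood at -0.12 and -0.28 with MMS, against 1.11 and 1.48 untreated, and GSY1 at -0.20 and -0.26 with MMS, against -1.26 and -1.46 untreated. The exception was AI5_ALPHA, at 0.88 and 1.32 with MMS, against -0.23 and 0.49 untreated. Over the 919 genes with a called strain difference this held for 836 (91.0%), and over all 4073 genes for 3015 (74.0%). That is a description without a test, since these ratios form part of the contrast. Duplicate spots agreed least, of all arrays, on the 2 arrays that gave the ratios with MMS (correlations 0.747 and 0.696).

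**Figure D5:**
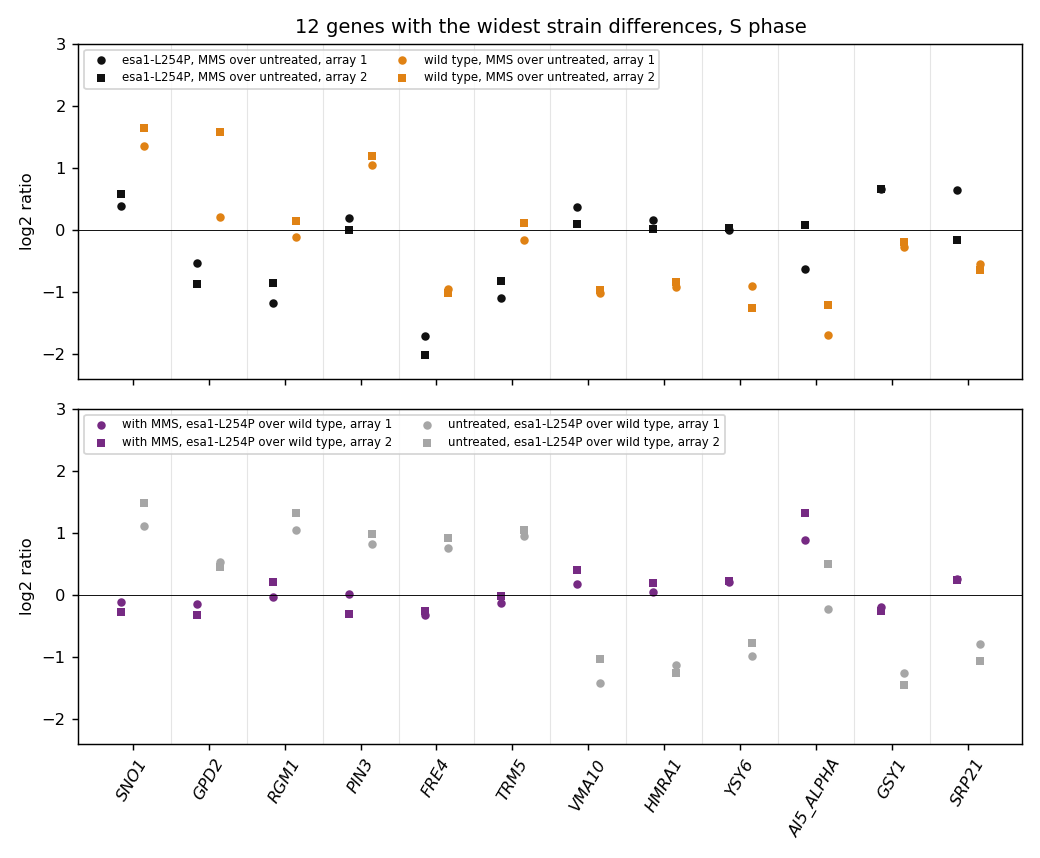
Log2 ratios of 12 genes on the 8 S phase arrays (circles array 1, squares array 2): above, MMS over untreated in esa1-L254P (black) and wild type (orange); below, esa1-L254P over wild type with MMS (purple) and untreated (grey). For 11 of the 12 genes the untreated ratios lie farther from 0 than those with MMS.

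Named after their values were seen, 8 genes fell in esa1-L254P and rose in wild type, each with a called strain difference. The values they were picked by form part of that contrast, so these calls add no separate support. YOX1 read -0.56 and -0.63 in esa1-L254P, against 0.23 and 0.24 in wild type (difference -0.89, adjusted p = 0.000278), and BUB3, of the spindle checkpoint, -0.29 and -0.33 in esa1-L254P, against 0.32 and 0.32 in wild type (difference -0.65, adjusted p = 0.000743). The others were SHU1, TKL2, LRO1, MET8, JEN1 and TRS31, with differences between -0.60 and -0.37.

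Ribosome biogenesis genes fell less in the mutant for 32 of 98 members, with 1 the other way, and at list medians of -0.70 in esa1-L254P and -0.91 in wild type. Histone modification and remodelling genes had 16 of 64 with a higher response in the mutant and 6 lower, mitochondrial ribosomal protein genes 17 of 59 higher and 5 lower, and glycogen and trehalose genes 8 of 20 higher and 1 lower. Iron genes went the other way, with 9 of 27 lower in the mutant and 1 higher, as did G1/S genes, with 7 of 40 lower and 1 higher. With the block, higher and lower counts were 48 and 3 for ribosome biogenesis, 23 and 13 for histone modification, 25 and 10 for mitochondrial ribosomal, 9 and 4 for glycogen, 1 and 16 for iron and 3 and 17 for G1/S genes. Leaving out 1 of the 8 arrays gave 16 to 29 higher ribosome biogenesis genes, the lowest without wild-type array 2, 8 to 18 higher mitochondrial ribosomal genes, the lowest without wild-type array 1, 3 to 6 lower histone modification genes, and 0 higher G1/S genes.

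In the damage lists, REV3 and REV7 had higher responses in esa1-L254P than in wild type, with 0.12 and 0.48 against -0.54 and -0.22 for REV3 (difference 0.64, adjusted p = 0.0176) and 0.084 and 0.28 against -0.34 and -0.42 for REV7 (difference 0.61, adjusted p = 0.00138). ESA1 also differed, at -0.033 in esa1-L254P against -0.38 in wild type (difference 0.30, adjusted p = 0.0151). Checkpoint genes had 4 of 21 with a higher response in the mutant and none lower, homologous recombination 6 of 24 higher and 2 lower, translesion synthesis 5 of 18 higher and 2 lower, and ESCRT genes 9 of 19 higher and 1 lower. Ribonucleotide reductase genes had 1 of 10 lower, IXR1 (-0.40, adjusted p = 0.00719), and none higher. With the block, higher and lower counts were 7 and 1 for checkpoint, 9 and 5 for recombination, 8 and 3 for translesion, 11 and 2 for ESCRT and 0 and 4 for ribonucleotide reductase genes. Leaving out 1 of the 8 arrays gave 2 to 4 higher checkpoint genes, 4 to 5 higher recombination genes and 3 to 5 higher translesion genes.

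The same mutant arrested in G1 had 552 genes higher with MMS (13.6%) and 593 lower (14.6%). Of the genes that rose in S phase 311 (47%) rose in G1 as well, or 56.3% of the G1 rises, and 314 of those that fell in S phase (45.4%) fell in G1, or 53% of the G1 falls. The phase difference, S minus G1, was called higher for 222 genes (5.45%) and lower for 196 (4.81%), or 525 and 602 with the block. Time under α-factor and release differed between these groups along with phase, so the cause of a difference cannot be told apart among them.

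CLB2 cluster genes led the lower side: 17 of 23 had a lower response in S phase than in G1, and none a higher one. SWI5 read -2.49 and -2.84 in S phase, against 0.086 and -0.13 in G1 (difference -2.64, SE 0.29, adjusted p = 0.000843), and HOF1 -2.25 and -2.41 in S phase, against 0.28 and 0.081 in G1 (difference -2.51, adjusted p = 5.79e-05). HST3 and CHS2 differed by -2.23 (adjusted p = 0.000441) and -1.92 (adjusted p = 0.0058). In G1 the 4 genes lay near 0. SUR7 differed by -1.96 (adjusted p = 0.0171), and DHH1, an RNA helicase of mRNA decay that was not called in S phase (-0.61 and 0.082), read 1.28 and 1.79 in G1 (difference -1.80, adjusted p = 0.0151).

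On the higher side, MCD1 read 1.16 and 0.73 in S phase, against -0.53 and -0.95 in G1 (difference 1.69, SE 0.21, adjusted p = 0.00117), and PMS1 0.85 and 0.92 in S phase, against -0.48 and -0.56 in G1 (difference 1.40, adjusted p = 0.000441). COX17, a copper chaperone of cytochrome oxidase assembly, read 0.52 and 0.45 in S phase, against -1.07 and -1.18 in G1 (difference 1.61, adjusted p = 0.000195). PET117, of the same assembly, FYV6, of end joining and splicing, and SLF1 differed by 1.47 (adjusted p = 0.000213), 1.36 (adjusted p = 0.000195) and 1.31 (adjusted p = 0.0482). All but SLF1 were below 0 in G1 and above 0 in S phase.

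By list, 16 of 40 G1/S genes had a higher response in S phase than in G1 and 1 a lower one, where 13 of them fell with MMS in G1. Origin and fork genes had 9 of 41 higher and 3 lower, and mitochondrial ribosomal protein genes 20 of 59 higher and none lower, 31 of them falling in G1. With the block, higher and lower counts were 25 and 4 for G1/S, 14 and 8 for origin and fork, and 34 and 1 for mitochondrial ribosomal genes. Leaving out 1 of the 4 arrays gave 11 to 17 higher mitochondrial ribosomal genes, the lowest without S phase array 1, 0 to 1 lower origin and fork genes, and no lower G1/S gene. RNR3 and RNR4 differed by 1.00 (adjusted p = 0.000843) and 1.28 (adjusted p = 0.0298), with 0.99 in S phase and -0.0035 in G1 for RNR3. RNR1 differed by 1.51, which did not pass the test (adjusted p = 0.0578). MAG1 gave 1.08 in S phase and 0.86 in G1, a difference of 0.22 that was not called (adjusted p = 0.687). Proteasome, ubiquitin, chaperone, ribosomal protein and RNA polymerase I and III genes had no called phase difference in any of their 244 measured members by limma, against 7 at an unadjusted p under 0.05, 29 with the block and at most 1 with 1 of the 4 arrays left out.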

How the data were processed

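Polyadenylated RNA of paired conditions was compared on 16 two-colour arrays. The deposited value table holds 15744 log2 ratios per array, for which the submitters' processing notes name limma 3.0 under R 3.1.1, and which are read here as Cy5 over Cy3; the base and direction are limma's defaults, and the background correction and normalization are not given in the sources used here. Column medians lay between -0.0058 and 0.0048, so the arrays had been centred or nearly so.

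Row names carry no probe numbers, so 15552 regular row orderings were scored by the agreement of duplicate spots in 2037 genes. The best scored 1.09, the next 0.0358 and the best of shuffled names 0.0327. The platform annotation names 1 gene for 8152 spots and none for 7592. Of 4073 genes, 3940 symbols are current in the R64 annotation, 125 were updated and 8 kept as given.

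Spots of a gene were averaged and dye-swapped arrays turned in sign. limma 3.58.1 in R 4.3.3 (lmFit and eBayes) fitted 8 comparison means over all 16 arrays (8 residual degrees of freedom). Differences between strains and between phases were contrasts in the same fit. With no spot intensities used here, no filter on dim spots was possible; the number of arrays limits precision. Data were simulated with noise independent between arrays and 100 genes changed by each of 2 sizes. There, 45% of changes of 0.5 and 81% of changes of 1 were recovered among 4073 genes, with 5 false calls. The simulation held no deviation shared between arrays and fewer changed genes than were called here, so these rates may not hold for the real arrays. Same-numbered arrays, which share dye orientation, deviated together in all 28 pairs of comparisons (correlation 0.619 to 0.892), so a replicate block (1 added term for dye orientation, which is also the replicate number) is given where it moves a result.

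Genes were named by rule: the 25 largest called changes per direction, ESA1 and 10 damage genes, up to 6 called members per direction and the 3 smallest changes of each of 53 lists, and the 6 widest differences per direction. The lists, members and rules were chosen with earlier results of these data known. Alternatives concerned the block, scaling, centring, spots, prior and arrays left out.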

Additional observations from a re-analysis of the deposited data

Results flagged for a closer look

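The MMS response differed between strains in S phase, by the tested contrast of esa1-L254P minus wild type, for 553 genes on the higher and 366 on the lower side. Those named by rule were VMA10 (1.37), HMRA1 (1.15), YSY6 (1.10), AI5_ALPHA (1.07), GSY1 (1.01) and SRP21 (1.01) on the higher side. On the lower side they were SNO1 (-1.26), GPD2 (-1.16), RGM1 (-1.06), PIN3 (-1.04), FRE4 (-1.01) and TRM5 (-1.01). Adjusted p for these 12 lay between 0.000278 and 0.0301.

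The response of esa1-L254P differed between phases, by the tested contrast of S minus G1, for 222 genes on the higher and 196 on the lower side. MCD1 (1.69), COX17 (1.61), PET117 (1.47), PMS1 (1.40), FYV6 (1.36) and SLF1 (1.31) were the widest on the higher side. SWI5 (-2.64), HOF1 (-2.51), HST3 (-2.23), SUR7 (-1.96), CHS2 (-1.92) and DHH1 (-1.80) were the widest on the lower side. Adjusted p for these 12 lay between 5.79e-05 and 0.0482.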

How the results depend on the processing

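For the MMS response of esa1-L254P in S phase, 662 genes rose and 692 fell. The replicate block, which adds the dye orientation as a term, gave 1030 and 1235; scaling each array to the same spread gave 388 higher; and a threshold of at least 2-fold gave 67 and 107. Leaving out either array gave 299 to 364 higher and 373 to 467 lower. Fitting the 2 arrays by themselves, with 1 residual degree of freedom, called 0 and 0 by limma, with 488 and 466 at an unadjusted p under 0.05. For the strain difference (553 and 366), the block gave 958 and 859, the MMS comparisons by themselves 132 and 87, and the esa1-L254P over wild type comparisons by themselves 271 and 156. Leaving out 1 of its 8 arrays gave 348 to 513 higher and 219 to 318 lower, with 348 and 219 coming from wild-type S phase replicate 2. For the phase difference (222 and 196), the block gave 525 and 602, scaling 122 and 111, and the last spot 120 higher. Leaving out 1 of its 4 arrays, some of these left out as an alternative added after seeing the data, gave 103 to 130 higher and 99 to 140 lower. Its own 4 arrays gave 0 and 0, with 289 and 260 at an unadjusted p under 0.05. Centring, the first spot, a filter on genes whose spots lay within 0.5 and a robust prior kept each count within 1.5 times. The cause of each move was not tested. Where 1 array of a pair was left out, fewer arrays and the loss of its dye-swapped partner came together and cannot be told apart. Genes with no call changed sign under some settings. The first spot turned ESA1 to 0.0188 and YSY6 to -0.0599. Without array 1 (then without array 2) AI5_ALPHA gave 0.0752 (-0.63), DHH1 0.082 (-0.61), PIN3 -0.0069 (0.19), RAD30 0.44 (-0.13), SRP21 -0.16 (0.65) and YSY6 0.0372 (-0.0027).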

Other observations

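Vitamin B6 genes of the SNZ and SNO families, which respond to nutrient limitation, rose in 2 of 6 cases in esa1-L254P, SNO1 (0.39 and 0.57) and SNZ3 (0.16 and 0.38), and neither without array 2. Among hexose transporters HXT10 read 0.80 and 1.29 and HXT5, a transporter of slow growth, 0.73 and 0.75, and both rose, while the glucose sensor RGT2, at -0.94 and -0.69, fell. These families hold near-identical members, which the probes may not separate.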
